A study of Ovis aries with 115 samples.

Results

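The cervix of the ewe is a folded canal of smooth muscle, connective tissue, glands and a mucus-secreting epithelium. In the follicular phase oestrogen from the growing follicle drives mucus secretion and tissue remodelling, and this canal limits the passage of sperm after cervical insemination. The comparison described here is that of Norwegian White Sheep (NWS, labelled Norwegian) with Suffolk ewes around oestrus in an unsynchronised cycle, labelled Natural and Follicular. It holds 18 libraries of the 115 in the series, chosen by their labels for breed, cycle and phase, namely 10 NWS and 8 Suffolk ewes. A further library, titled as a Suffolk natural follicular sample, carries other labels for cycle and phase and was not used.

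Each library was made from poly-A RNA of cervix taken after slaughter from 1 ewe, and the study describes its ewes as multiparous adults, with the cervix sampled in its middle region. NWS is a high fertility breed that was sampled in Norway and Suffolk a low fertility breed that was sampled in Ireland. Breed and country therefore cannot be told apart in any value given here. For comparison the series holds NWS and Suffolk ewes in the follicular phase (10 and 11) and the luteal phase (8 and 10) of a synchronised cycle, labelled Induced, which were other libraries. The labels give no ages, and no dates of sampling or sequencing.

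The total read count per NWS ewe had a median of 18045054 and lay between 14050524 and 21404762, and that per Suffolk ewe had a median of 15934767 and lay between 13406420 and 20773445. The mean totals did not differ beyond the spread between ewes (two-sided exact permutation test, p = 0.273). Levels are given as CPM, the count divided by the library total in units of 1e+06 reads after scaling by the trimmed mean of M values (TMM) method. This scaling was done separately among the NWS and Suffolk ewes of each phase. Markers of the cell layers of the cervix were found in both breeds, since none of the 19 marker identifiers for smooth muscle, epithelium, lymphocytes, myeloid cells, endothelium and fibroblasts was at 0 counts throughout. The summed CPM of the muscle markers ACTG2 and DES was 1215 to 22158 in NWS (median 5299) and 62.9 to 5924 in Suffolk (median 458). That of 5 epithelial markers was 571 to 1414 in NWS (median 1051) and 687 to 2429 in Suffolk (median 1689). In tissue RNA, fewer cells of a type and less RNA per cell cannot be told apart, and the part of the tissue makeup in the gene values below was not tested.

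Some ewes stood apart from the rest of their breed. On the first principal component of log2 CPM, which held 27.4% of the variance, NWS ewes lay between 1.38 and 85.7 and Suffolk ewes between -78.0 and 20.8. Suffolk ewes 6 and 7, at 20.8 and 17.9, lay among the NWS ewes. The NWS ewe 5 was alone at 85.7 on the first and -98.1 on the second component, and its summed muscle markers of 22158 CPM were the highest of all. Suffolk ewe 4 was at 88.9 on the third component, against -40.4 to 9.57 in the other Suffolk ewes.

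**Figure D1:**
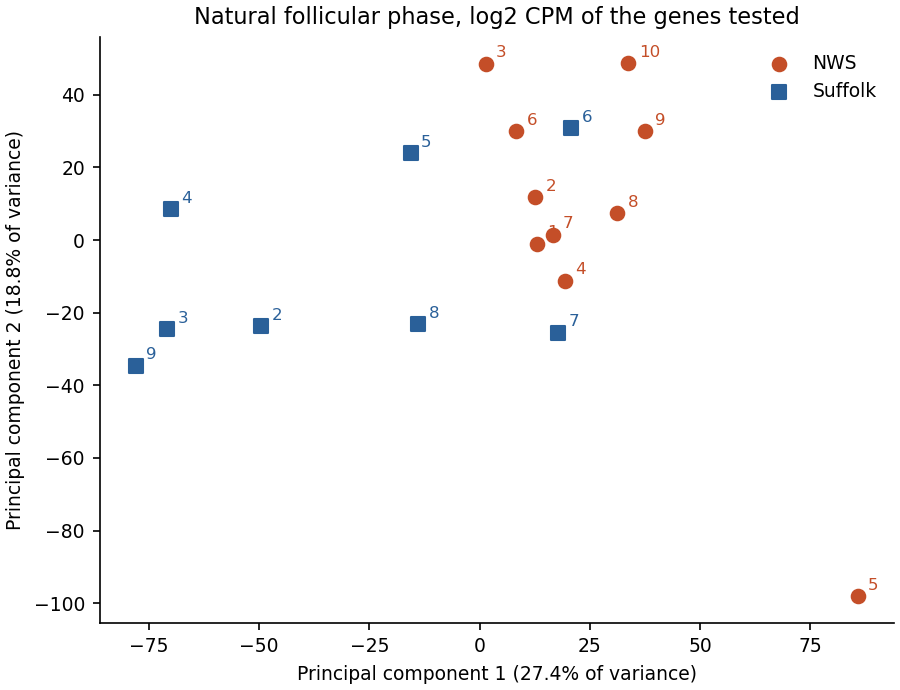
Principal components 1 and 2 of log2 CPM over the 14426 genes tested, with 1 point per ewe and its number beside it. The breeds are spread along component 1 (27.4% of the variance) with Suffolk ewes 6 and 7 inside the range of NWS, and NWS ewe 5 lies far from every other ewe.

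Of 14426 genes tested, 143 were differentially expressed genes (DEGs), or 0.991%, with 79 higher (0.548%) and 64 lower (0.444%) in NWS compared to Suffolk. A DEG had an adjusted p below 0.05 in edgeR's quasi-likelihood test (Benjamini-Hochberg over all genes) and a fold change above 1.5. An unadjusted p below 0.05 was reached by 2829 genes (19.6%), 1483 of them higher (10.3%) and 1346 lower (9.33%) in NWS. The adjusted p-values lay close to the threshold: only 6 DEGs were under 0.03, and the smallest was 0.0101. The absolute log2 fold change had a median of 1.19 over the DEGs higher in NWS and 1.13 over those lower in NWS, up to 3.69 and 4.53.

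The number of DEGs depended on single ewes. Leaving out 1 ewe at a time gave from 4 to 880 DEGs, with a median of 45. Without Suffolk ewe 6 there were 880, without Suffolk ewe 7 there were 415, and without NWS ewe 3 there were 228. The count fell to 4 without NWS ewe 10 or without Suffolk ewe 2, 3 or 9, to 5 without NWS ewe 8 or 9, to 9 without NWS ewe 4 and to 16 without Suffolk ewe 8. It was 34 and 66 without Suffolk ewes 5 and 4, and 87, 83, 159, 92 and 56 without NWS ewes 1, 2, 5, 6 and 7. All 143 DEGs kept their direction and an unadjusted p below 0.05 in each of these 18 fits, and their highest adjusted p in any of them was 0.121. These genes were called on largely the same ewes, so this describes the calls and is no separate test of them. Only 4 were called in all 18, of which 3 were higher and 1 lower in NWS and none has a gene name. DESeq2, whose likelihood ratio test is the one named in the study's methods, called 739 genes (5.12%), of which 454 were higher (3.15%) and 285 lower (1.98%), among them all 143.

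**Figure D2:**
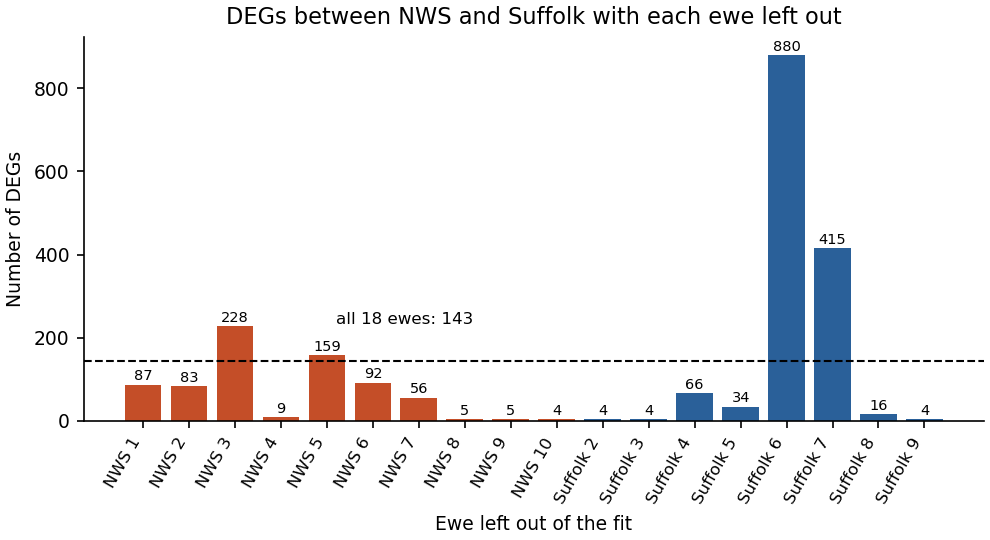
Number of DEGs between NWS and Suffolk (vertical axis, from 0) when the ewe named below each bar was left out of the fit. The dashed line marks the 143 DEGs with all 18 ewes, and the bars run from 4 to 880, the highest being those without Suffolk ewes 6 and 7.

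Where each ewe lay within the DEGs followed the same division. Among the 79 genes higher in NWS, Suffolk ewe 3 was below every NWS ewe in 73, Suffolk ewe 9 in 72, Suffolk ewe 7 in 37 and Suffolk ewe 6 in 11. Among the 64 genes lower in NWS, Suffolk ewe 3 was above every NWS ewe in 63, Suffolk ewe 9 in 61, Suffolk ewe 7 in 25 and Suffolk ewe 6 in 16. NWS ewe 10 was above every Suffolk ewe in 78 of the 79, and NWS ewe 3 in 24. These counts describe genes that were called on the same values and carry no test. Over all genes, the breeds did not overlap in 3 with NWS above (0.0208%) and in 8 with NWS below (0.0555%).

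The DEGs of smallest p carry no gene name in the sources used here. ENSOARG00000005188 was at 26.8 to 52.7 CPM in NWS (median 42.1) and at 12.8 to 26 CPM in Suffolk (median 19.6), so that each NWS ewe was above each Suffolk ewe. Its log2 fold change was 1.10 (SE 0.17, edgeR adjusted p = 0.0101). ENSOARG00000017838 ranged from 7.18 to 40.1 CPM in NWS (median 28.4) and from 2.6 to 10.5 CPM in Suffolk (median 5.64), with only NWS ewe 3 inside the Suffolk range and a log2 fold change of 2.23 (SE 0.33, edgeR adjusted p = 0.0101). Both were called whichever ewe was left out. ENSOARG00000006308, also called in all 18 fits, was lower in NWS, at 0.322 to 1.95 CPM (median 0.874) against 1.26 to 17.9 CPM (median 6.35), a log2 fold change of -3.16 (SE 0.50, edgeR adjusted p = 0.0157). ENSOARG00000012091 differed by less but varied little, from 14.5 to 19.4 CPM in NWS and from 19.1 to 29.7 CPM in Suffolk, with a log2 fold change of -0.60 (SE 0.10, edgeR adjusted p = 0.0254).

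Gene symbols could be given to 1305 of the genes tested, and these are not a neutral sample. They come from the study's tables, mostly from its list of genes higher in Suffolk than in Fur ewes at the synchronised phase. Of the 1305, 1074 (82.3%) had a lower estimate in NWS, with a median log2 fold change of -0.37, whereas the median over all genes tested was 0.01. Of the 37 named DEGs (2.84%), 36 were lower in NWS (2.76%) and 1 was higher (0.0766%), so that their directions do not stand for those of all DEGs. At an unadjusted p below 0.05, 34.3% of the named genes were lower and 2.38% higher, and DESeq2 called 10.8% of them lower, which are the shares to set beside the counts in the gene lists below. None of the 37 named DEGs was called in every fit with 1 ewe left out. Each was called in between 3 (CLDN3) and 12 (HOMER2) of the 18. Without NWS ewe 8 or 10 or Suffolk ewe 2, 3 or 9 none of them was called, and without NWS ewe 4 or 9 there was 1.

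The named gene that was higher in NWS was BRINP3, of the family of genes inducible by BMP and retinoic acid. It was at 0.812 to 17.9 CPM in NWS (median 3.39) and at 0 to 1.19 CPM in Suffolk (median 0.237). NWS ewe 4 alone lay within the Suffolk range. The log2 fold change was 3.48 (SE 0.64, edgeR adjusted p = 0.0352), an 11.2-fold difference, and the gene was also higher in NWS at the synchronised follicular phase (3.02, edgeR adjusted p = 0.000303).

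Several lower genes encode proteins of the epithelial cell surface and of cell junctions. Epithelia seal the spaces between their cells with tight junctions, whose strands are made of claudins and, where 3 cells meet, of angulins. LSR, which encodes the angulin of the tricellular junction, was at 47.9 to 75.9 CPM in NWS (median 60.2) and at 64.1 to 122 CPM in Suffolk (median 99.9), with Suffolk ewes 6 and 7 within the NWS range. Its log2 fold change was -0.66 (SE 0.13, edgeR adjusted p = 0.0369). ST14, which encodes the membrane protease matriptase, was at 99.4 to 237 CPM in NWS (median 198) against 199 to 524 CPM in Suffolk (median 348), a log2 fold change of -0.97 (SE 0.21, edgeR adjusted p = 0.0403). CLDN3 (claudin 3) was at 11.1 to 63.5 CPM against 35.9 to 123 CPM, with a log2 fold change of -1.09 (SE 0.26, edgeR adjusted p = 0.0492). EZR encodes ezrin, which ties the apical membrane to actin, and was 2.02-fold lower in NWS, at 102 to 272 CPM (median 190) against 224 to 628 CPM (median 400). In each of these genes the breeds overlapped, and the lowest Suffolk ewes were 6 and 7 in LSR and 6 in ST14, CLDN3 and EZR.

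Of the 37 identifiers tested in a list of epithelial junction and polarity genes, LSR, ST14 and CLDN3 were lower in NWS, none was higher, and 34 did not pass. The median log2 fold change of the list was -0.52, and 34 of the 37 estimates were below 0, against a median of -0.37 and 82.3% over the named genes. DESeq2 called 8 of them lower. The summed epithelial markers were also lower in the median NWS ewe, and their part in these values was not tested. CDH1, the adherens junction cadherin, had a log2 fold change of -0.51 (edgeR adjusted p = 0.391), with NWS ewe 5 at 41.1 CPM and every other NWS ewe at 244 CPM or more. JUP, of highest level among the members not called, had medians of 492 CPM in NWS and 522 CPM in Suffolk. Its log2 fold change was -0.07 (SE 0.17, edgeR adjusted p = 0.864), and ran from -0.135 to 0.0125 with 1 ewe left out.

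The next named DEGs are grouped only by what single genes are known to do, with no list behind them. HOMER2, which encodes a scaffold that couples receptors to calcium stores, was at 14.7 to 25.4 CPM in NWS (median 19.9) and at 20.4 to 45.8 CPM in Suffolk (median 38.5), where ewes 6 and 7 were at 25.1 and 20.4 CPM and all others at 36.9 CPM or more. Its log2 fold change was -0.88 (SE 0.16, edgeR adjusted p = 0.0317). STX3, a syntaxin of apical secretion, was at 47.7 to 70.1 CPM against 62.5 to 113 CPM (log2 fold change -0.62, SE 0.12, edgeR adjusted p = 0.0369). UNC13B, which primes vesicles for release, was 2.46-fold lower in NWS, and the gene ERGIC1 of transport to the Golgi and the Rab regulator DENND3 were 1.63- and 1.99-fold lower. KIAA0930, whose product has no settled function, was the named DEG in which the breeds did not overlap, at 6.59 to 16.77 CPM in NWS and 16.85 to 31.8 CPM in Suffolk (log2 fold change -0.83, SE 0.16, edgeR adjusted p = 0.0369).

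CLCN3, SLC11A2 and NPC1 encode transporters. CLCN3, an endosomal chloride and proton exchanger gene, was at 49.6 to 104 CPM against 93.7 to 148 CPM (log2 fold change -0.59, SE 0.13, edgeR adjusted p = 0.0435). NPC1 exports cholesterol from lysosomes and was 1.96-fold lower in NWS, at 22.9 to 106 CPM against 80.9 to 184 CPM (edgeR adjusted p = 0.0435). SLC11A2, the iron transporter DMT1, is held by 3 identifiers in these counts, between which reads of 1 gene may be split. ENSOARG00000017439 and ENSOARG00000017470 were 4.26- and 3.88-fold lower in NWS, and the remaining identifier was not called with all ewes but was without NWS ewe 6 (log2 fold change -3.27, edgeR adjusted p = 0.0244). In the lysosome list 1 of 37 identifiers (NPC1) was lower and none higher, and DESeq2 called 3 lower and none higher.

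Other lower genes encode receptors, ligands and signalling proteins. OXTR encodes the oxytocin receptor, through which the cervix responds to oxytocin around oestrus and at lambing. It was at 0.826 to 12.4 CPM in NWS (median 3.35). In Suffolk it was at 45.1, 179, 187 and 197 CPM in ewes 2, 3, 4 and 9 and at 0.417 to 4.83 CPM in ewes 5 to 8, so that the Suffolk ewes lay in separate clusters and the lower one fell within or below the NWS range. The log2 fold change was -4.24 (SE 0.95, edgeR adjusted p = 0.0435). ESR2, the gene of oestrogen receptor beta, was at 0.397 to 5.21 CPM in NWS (median 1.45) and 1.71 to 14.5 CPM in Suffolk (median 5.77), with a log2 fold change of -1.90 (SE 0.45, edgeR adjusted p = 0.0490).

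SEMA4D encodes a membrane semaphorin of lymphocytes and epithelia. It was at 33.0 to 78.8 CPM in NWS (median 60.2) and at 57.2 to 349 CPM in Suffolk (median 139), where only ewe 7 was in the NWS range (log2 fold change -1.46, SE 0.28, edgeR adjusted p = 0.0369). SEMA3F, a secreted semaphorin gene, was 1.95-fold lower in NWS (edgeR adjusted p = 0.0441). ADAM28, a membrane metalloprotease gene, was at 38.7 to 335 CPM in NWS (median 152) and 241 to 734 CPM in Suffolk (median 531), a log2 fold change of -1.63 (SE 0.31, edgeR adjusted p = 0.0369). BCAR3, an adaptor of integrin and growth factor signalling, was at 12.9 to 36.1 CPM against 26.7 to 96.3 CPM (log2 fold change -1.21, SE 0.23, edgeR adjusted p = 0.0369). IL15RA, the receptor chain that presents interleukin 15 to lymphocytes, was 1.90-fold lower. PFKFB3, which encodes an activator of glycolysis, was at 4.77 to 30.8 CPM against 21.0 to 84.8 CPM and was 2.91-fold lower in NWS (edgeR adjusted p = 0.0369).

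The uroplakin gene UPK3B, the phospholipase gene PLA1A and the chemokine gene CXCL14 showed the division of the Suffolk ewes seen in OXTR. UPK3B was at 44.3, 54.5, 58.5 and 80.6 CPM in Suffolk ewes 2, 3, 4 and 9, at 1.15 to 5.40 CPM in the other four and at 0.572 to 7.09 CPM in NWS. PLA1A was at 11.4, 46.9, 396 and 35.2 CPM in the same 4 ewes, at 1.46 to 7.53 CPM in the rest of Suffolk and at 0 to 9.67 CPM in NWS. CXCL14 was at 5.57, 24.9, 12.9 and 24.0 CPM, against 0.297 to 2.03 CPM and 0.159 to 2.26 CPM. Their log2 fold changes were -3.37, -4.45 and -3.16 (edgeR adjusted p = 0.0413, 0.0419 and 0.0435). The value of PLA1A rests on Suffolk ewe 4, without which its log2 fold change was -2.46 and was not called (edgeR adjusted p = 0.0858). In all 3, and in OXTR, the ewes 5 to 8 of Suffolk overlapped NWS, so the fold change describes the mean over 2 unlike sets of Suffolk ewes. The muscle markers were lowest in ewes 3, 4, 5 and 9, with summed levels of 76.7, 62.9, 93.2 and 115 CPM, which is not the same set.

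**Figure D3:**
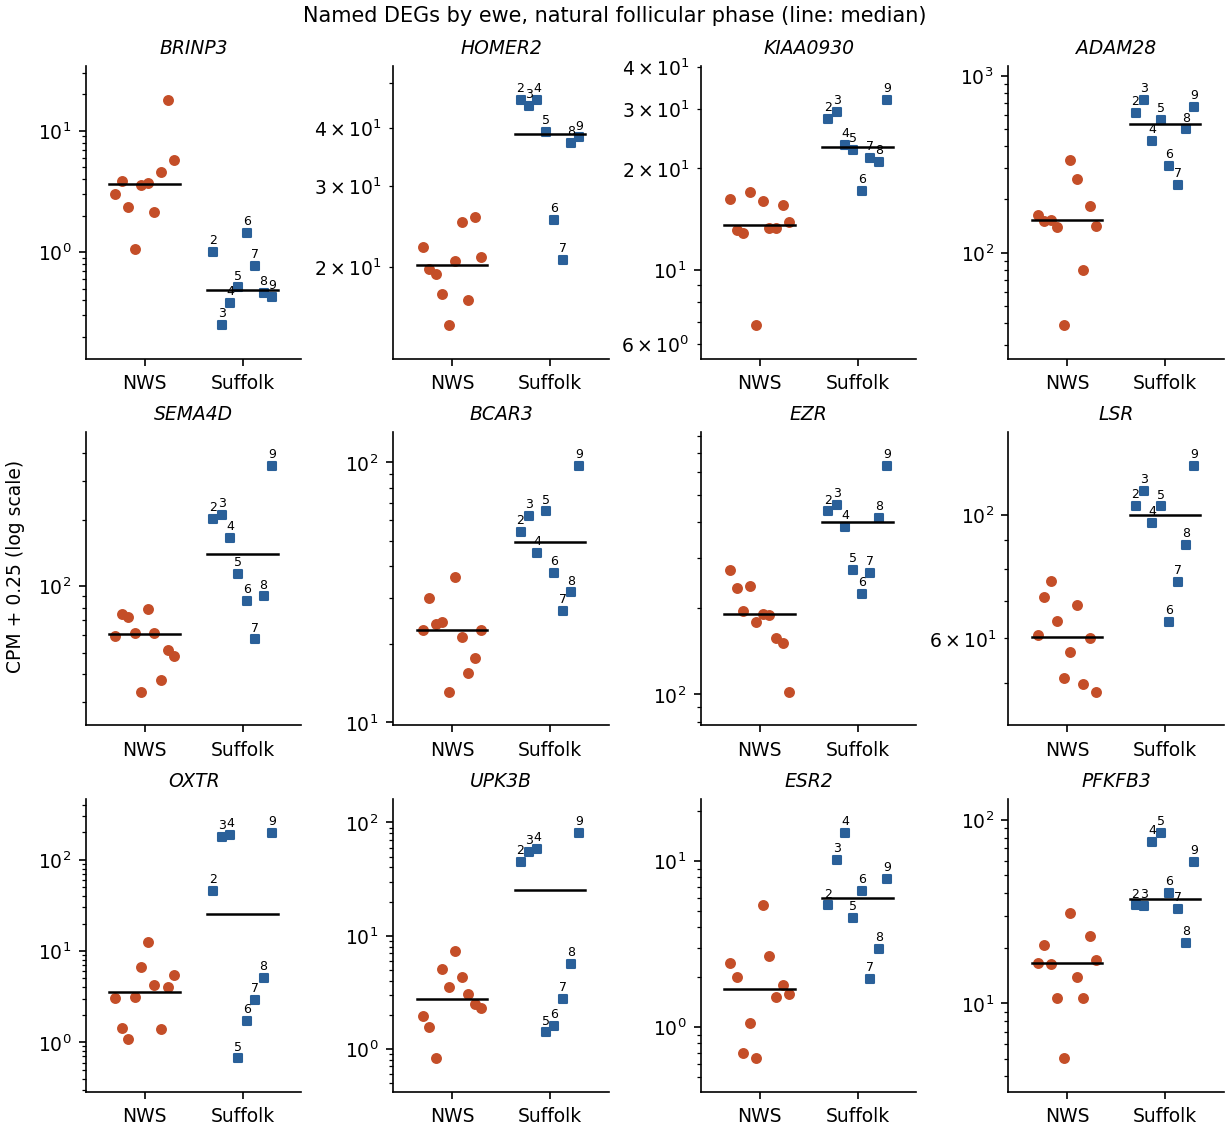
CPM plus 0.25 of 12 named DEGs on log axes, with 1 point per ewe (circles NWS, squares Suffolk with the ewe number) and a line at the median. BRINP3 is higher in NWS and the others lower. Suffolk ewes 6 and 7 lie nearest to NWS in HOMER2, ADAM28 and LSR, and ewes 2, 3, 4 and 9 stand alone in OXTR and UPK3B.

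A further 9 named DEGs were lower in NWS, by 1.55-fold (DEAF1, a transcription factor gene) to 4.40-fold (SSUH2). They were MROH5, KCTD14, SSUH2, TSPAN14, C1orf210, DEAF1, SIPA1L2, XPNPEP1 and RHOBTB3, and in each of them at least 1 Suffolk ewe lay in the NWS range.

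Smooth muscle gives the cervix its contractile layer. Only 12 of the 28 symbols in the muscle list had an identifier, and named genes were mostly lower in NWS, as given above. These 12 therefore do not stand for all muscle genes. Of them, 7 had a positive and 5 a negative estimate in NWS. Their median log2 fold change was 0.23, and none was a DEG by edgeR. The 5 largest estimates were all positive, and belong to ACTG2, DES, ACTC1, ASB2 and POPDC2. ACTG2 (smooth muscle gamma actin) was at 316 to 9262 CPM in NWS (median 2054) and at 19 to 1844 CPM in Suffolk (median 243), where ewes 6 and 7 were at 806 and 1844 CPM and ewes 3, 4, 5 and 9 at 19 to 72.3 CPM. Its log2 fold change was 2.49 (SE 0.81, edgeR adjusted p = 0.105). DES (desmin, the muscle intermediate filament) was at 899 to 12896 CPM in NWS and at 28.2 to 4080 CPM in Suffolk, with ewes 6, 7 and 8 at 2413, 4080 and 1274 CPM and the others at 302 CPM or less (log2 fold change 1.89, SE 0.87, edgeR adjusted p = 0.238). In both genes NWS ewe 5 was the highest ewe and Suffolk ewes 3, 4, 5 and 9 were below every NWS ewe. ASB2, a ubiquitin ligase subunit of muscle, was at 11.5 to 52.8 CPM in NWS and 0.195 to 24.1 CPM in Suffolk. POPDC2, a membrane protein gene of muscle, was at 0.953 to 20.6 CPM against 0.0579 to 9.28 CPM. With ACTC1 (cardiac actin) their log2 fold changes were 2.13, 2.11 and 2.00 (edgeR adjusted p = 0.103, 0.162 and 0.155).

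In the calmodulin regulator genes PCP4 and PNCK, Suffolk ewes 6 and 7 were again the highest of their breed. PCP4 was at 12.5 to 259 CPM in NWS (median 23.4) and at 0 to 25.3 CPM in Suffolk (median 1.43), with a log2 fold change of 3.15 (SE 0.99, edgeR adjusted p = 0.0969). PNCK, a calmodulin-dependent kinase gene, was at 1.40 to 16.4 CPM in NWS and at 0 CPM in Suffolk ewes 3, 5 and 9, but at 1.76 and 4.08 CPM in ewes 6 and 7 (log2 fold change 2.71, SE 0.84, edgeR adjusted p = 0.0954). PI16, a marker of a fibroblast subset, was at 5.78 to 95 CPM in NWS and 0.456 to 21.9 CPM in Suffolk, where ewes 2 and 6 were highest (log2 fold change 2.26, SE 0.72, edgeR adjusted p = 0.0986).

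**Figure D4:**
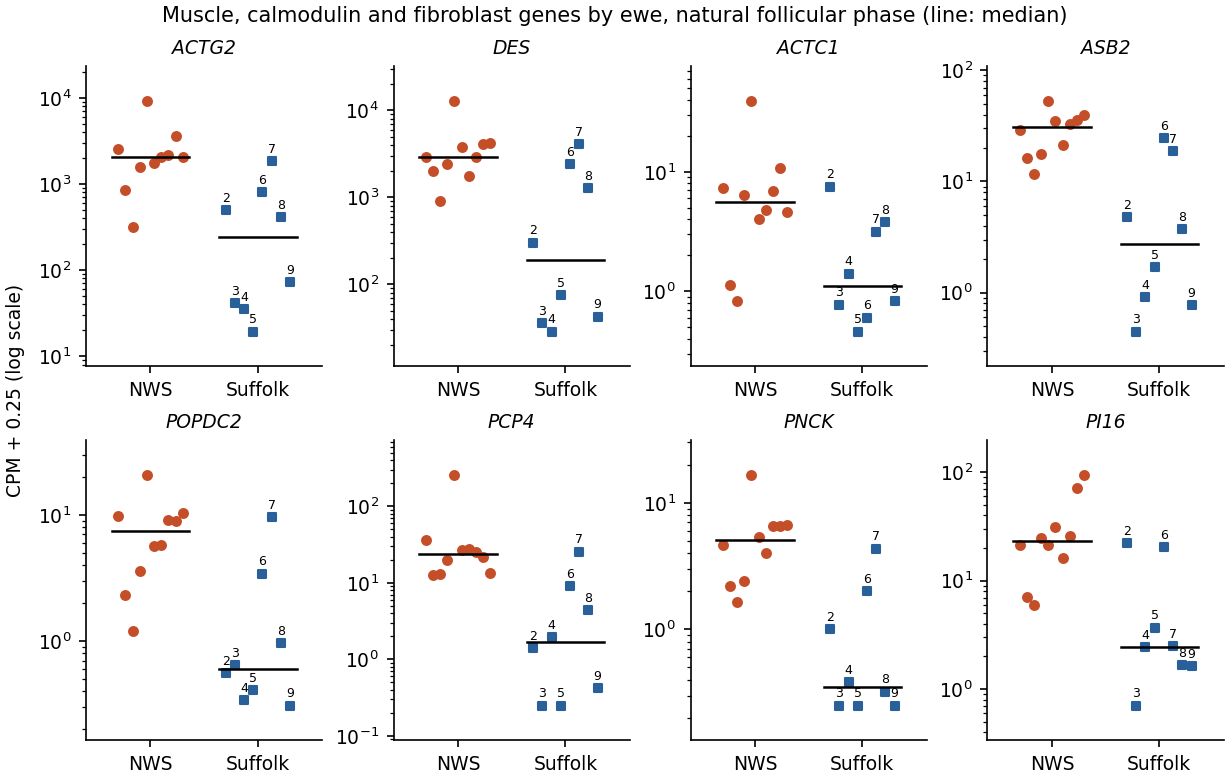
CPM plus 0.25 of 8 muscle, calmodulin and fibroblast genes on log axes, with 1 point per ewe (circles NWS, squares Suffolk with the ewe number) and a line at the median. All 8 medians are higher in NWS, and in ACTG2, DES, ASB2, POPDC2 and PNCK Suffolk ewes 6 and 7 reach the NWS range. Other Suffolk ewes reach it in ACTG2, DES, ACTC1 and PI16.

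At an unadjusted p below 0.05, these 5 genes of the muscle list were higher and 3 were lower, and DESeq2 called 1 higher and 1 lower. The 3 lower ones, named after their values were seen, were TPM3 (a tropomyosin, log2 fold change -0.81, edgeR adjusted p = 0.0801), MYH9 (a non-muscle myosin, -0.50, 0.115) and PPP1R12B (a myosin phosphatase subunit, -0.54, 0.227). None of the 16 calcium and calmodulin genes was called by edgeR, with 2 higher and 6 lower at an unadjusted p below 0.05, and DESeq2 called 1 and 2. Without Suffolk ewe 7, ACTG2 was called by edgeR at a log2 fold change of 3.28 (adjusted p = 0.041), POPDC2 at 3.47 (0.0275), PCP4 at 4.33 (0.0337) and PNCK at 3.82 (0.0275). Without Suffolk ewe 6, ASB2 was called at 2.81 (adjusted p = 0.0209) and PI16 at 2.74 (0.0336). With all ewes, DESeq2's likelihood ratio test called ACTG2 (adjusted p = 0.0475), PNCK (0.0391) and PI16 (0.0417) higher. DES and ACTC1 were not called in any fit with 1 ewe left out.

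Mucins form the gel of the cervical canal and coat the epithelium. MUC16, a membrane mucin gene, had a log2 fold change of -1.48 (SE 0.40, edgeR adjusted p = 0.0649), at 147 to 1017 CPM in NWS (median 586) and 496 to 4162 CPM in Suffolk (median 957). DESeq2 called it lower (adjusted p = 0.00743), as did edgeR without Suffolk ewe 6 (0.0184) or 7 (0.0421). For MUC1 the log2 fold change was -0.72 (edgeR adjusted p = 0.285), with Suffolk ewe 4 lowest of all 18 ewes at 126 CPM. SCGB2A1, a secretoglobin gene of glands, was at 0 to 10.5 CPM in NWS (median 0.920) and at 1.78 to 18.2 CPM in Suffolk (median 8.72), with a log2 fold change of -2.08 (SE 0.73, edgeR adjusted p = 0.129), and it was called only without NWS ewe 5 among the fits with 1 ewe left out (-2.85, adjusted p = 0.047). With edgeR, none of the 18 identifiers of the mucin and glycosylation list was a DEG. At an unadjusted p below 0.05 there were 7 lower and 1 higher, and DESeq2 called 3 lower.

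Of 24 genes of steroid, prostaglandin and cycle signalling, OXTR and ESR2 were lower in NWS and none was higher. The list had a median log2 fold change of -0.49, 11 of its members were lower at an unadjusted p below 0.05, and DESeq2 called 6 lower. GREB1, a classical oestrogen target, was at 54.2 to 616 CPM in NWS (median 184) and at 305 to 819 CPM in Suffolk (median 525), with a log2 fold change of -1.13 (SE 0.38, edgeR adjusted p = 0.116). IGF2 (insulin-like growth factor 2) was at 427, 338 and 575 CPM in Suffolk ewes 2, 3 and 9 and at 55.9 to 94.9 CPM in the other five, against 15.3 to 119 CPM in NWS (log2 fold change -1.48, edgeR adjusted p = 0.102). DESeq2 called both lower (adjusted p = 0.0415 for GREB1 and 0.028 for IGF2). The prostaglandin synthase gene PTGS1 had a log2 fold change of -0.38 (edgeR adjusted p = 0.507).

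The other lists held no DEG in the edgeR fit. Of 23 developmental transcription factor genes, 13 were lower at an unadjusted p below 0.05 and DESeq2 called 4, and PAX8, a factor of the reproductive tract epithelium, had a log2 fold change of -0.85 (SE 0.24, edgeR adjusted p = 0.0749) and was called lower by DESeq2 (adjusted p = 0.0206). In the extracellular matrix and fibroblast list (40 identifiers), 2 were higher and 13 lower at an unadjusted p below 0.05, and DESeq2 called 1 higher and 6 lower. In the lipid list (20) the numbers were 2 and 8, and DESeq2 called 2 lower. For lymphocyte (28), myeloid (16), complement and coagulation (15) and endothelial genes (6), 3, 3, 5 and 1 were lower at an unadjusted p below 0.05, 1 of the complement list and none of the others was higher, and DESeq2 called 0, 1, 3 and 0 lower. The summed levels of the cell markers overlapped between the breeds, at 12.4 to 33.7 CPM in NWS and 12.8 to 23.7 CPM in Suffolk for lymphocytes, 22.9 to 88.4 and 31 to 95.5 CPM for myeloid cells, 528 to 809.8 and 401 to 1259.9 CPM for endothelium, and 613 to 1435 and 465 to 1387 CPM for fibroblasts. The list medians ran from -0.64 (developmental factors) to 0.03 (interferon and antiviral genes) apart from the muscle list (0.23) and the 2 mitochondrially encoded genes (-0.76).

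Interferon-induced genes did not follow the pattern of the other named genes. Their list had a median log2 fold change of 0.03 over 29 identifiers, with 16 estimates above and 13 below 0, compared with a median of -0.67 in the ewes of the synchronised follicular phase, where 19 of the 29 were lower in NWS. At that phase 9.12% of all genes and 55.3% of the named genes were lower, and the names come largely from a list chosen there. At the natural phase none was called by edgeR, 3 were higher and 3 lower at an unadjusted p below 0.05, and DESeq2 called 1 lower. MX1, an antiviral GTPase gene, was at 55.9 to 269 CPM in NWS (median 126) and at 47.2 to 122 CPM in Suffolk (median 86.3), with a log2 fold change of 0.76 (SE 0.30, edgeR adjusted p = 0.172). NWS ewes 3, 6, 9 and 10 were the 4 highest ewes, at 269, 205, 198 and 196 CPM. They were also the 4 highest for the oligoadenylate synthetase gene OAS2, at 266, 168, 112 and 108 CPM against 20.9 to 44.3 CPM in the other NWS ewes and 30.6 to 73.7 CPM in Suffolk. OAS2 was picked after its values were seen, and its log2 fold change was 0.91 (edgeR adjusted p = 0.244).

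COX-1, the mitochondrial gene of cytochrome c oxidase subunit 1, was at 31.0 and 36.8 CPM in NWS ewes 10 and 4. The other NWS ewes were at 778 to 2447 CPM and the Suffolk ewes at 1791 to 2693 CPM. The log2 fold change was -0.93 (SE 0.54, edgeR adjusted p = 0.362), and MT-ND6, a complex I subunit gene, had one of -0.60 (edgeR adjusted p = 0.286). Without NWS ewes 4 and 10 together no gene of the whole table was called by edgeR, while 2273 had an unadjusted p below 0.05. All 143 DEGs kept their direction and an unadjusted p below 0.05 in that fit, which is no separate test, since they were called with the same remaining ewes.

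The breed comparison was repeated in the separate ewes of the synchronised cycle, over the same 14426 genes. There were 2671 DEGs (18.5%) at the synchronised follicular phase and 622 (4.31%) at the synchronised luteal phase. Ewes of a breed varied more at the natural phase, where the median SD of log2 (CPM plus 0.25) was 0.454 in NWS and 0.396 in Suffolk, compared with 0.303 and 0.312 at the synchronised follicular phase. The median SE of a log2 fold change was 0.214 at the natural phase and 0.139 at the synchronised one.

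Of the 143 natural DEGs, 137 (95.8%) had the same direction at the synchronised follicular phase, against 70.0% of all genes, and 92 (64.3%, or 3.44% of the synchronised DEGs) were called there in that direction. None was called in the opposite one. At the luteal phase 130 (90.9%) had the same direction, against 69.3% of all genes. There 31 (21.7%) were called in that direction, where 4.31% of all genes were called in either direction. In both other states 27 (18.9%) were called in the same direction. Across all genes the log2 fold changes of the natural and the synchronised follicular phase correlated at r = 0.594, and those of the natural and the luteal phase at 0.507. These are correlations across genes, which are not independent replicates, and all 3 comparisons have in common that breed and country go together. The 2671 synchronised DEGs had a median absolute log2 fold change of 0.85 there and 0.49 at the natural phase, and 88.8% had the same direction.

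Named DEGs with nearly equal estimates in both follicular phases included HOMER2 (log2 fold change -0.88 and -0.88), LSR (-0.66 and -0.65) and ESR2 (-1.90 and -1.99). PLA1A and CXCL14 had log2 fold changes of -4.45 and -3.16 at the natural phase and 0.25 and -0.30 at the synchronised phase, where neither was called. The unnamed ENSOARG00000006308 and ENSOARG00000012091, lower in NWS at the natural phase, had log2 fold changes of -0.02 and -0.01 there, and interactions of -3.14 and -0.59 that did not pass (edgeR adjusted p = 0.0803 for both). At the synchronised phase ACTG2, DES and POPDC2 and the calmodulin genes PCP4 and PNCK had larger estimates, with log2 fold changes of 4.21, 4.17, 4.69, 6.36 and 7.07, and all were called. The 12 muscle identifiers did not move one way there, with 5 higher and 6 lower in NWS. Their median log2 fold change was -0.61. They cover 12 of the list's 28 symbols, and the names come mostly from genes higher in Suffolk than in Fur ewes at that phase. The study reports muscle contraction among the processes higher in NWS at that phase. The highest Suffolk ewe of that phase had 260 CPM of ACTG2 and 423 CPM of DES, below the 806 and 2413 CPM of the natural Suffolk ewe 6. These CPM were scaled separately in each phase, so they are not on a common scale.

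**Figure D5:**
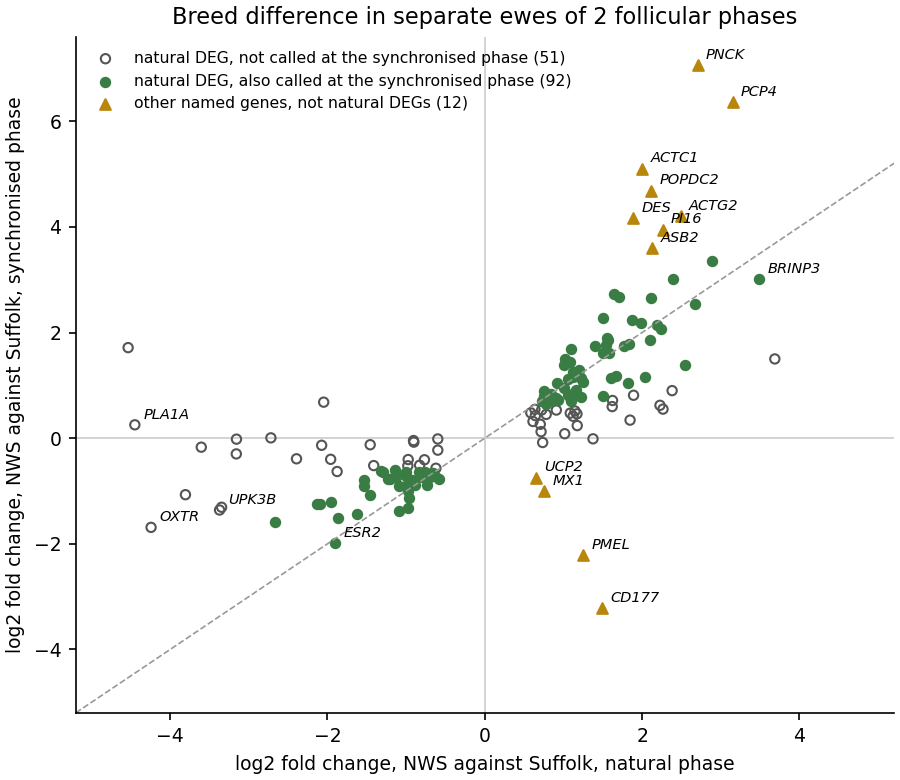
Log2 fold change of NWS against Suffolk at the natural (horizontal) and the synchronised (vertical) follicular phase, with 1 point per gene, for the 143 natural DEGs and 12 other named genes. The dashed line marks equal values. The 92 filled circles were called in both phases, the labelled muscle and calmodulin genes and PI16 lie above the line, and CD177, PMEL, MX1 and UCP2 are above 0 on the horizontal and below 0 on the vertical axis.

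Whether the breed difference itself differed between the 2 follicular phases was tested as an interaction. It was called for 1 gene (0.00693%), while 2090 (14.5%) had an unadjusted p below 0.05. The gene, ENSOARG00000013745, was at 18.7 to 84.2 CPM in NWS (median 43.0) and 25.5 to 190 CPM in Suffolk (median 91.3) at the natural phase, and at 39.8 to 285 CPM (median 137) and 26.8 to 102 CPM (median 44.8) at the synchronised phase. These CPM were scaled within each phase, whereas the interaction was fitted on the ewes of both phases together. The interaction was -2.65 on the log2 scale (SE 0.46, edgeR adjusted p = 0.0167). The call was lost without NWS ewes 4 and 10 of the natural phase, where no gene passed and 1963 had an unadjusted p below 0.05. With NWS ewe 5 and Suffolk ewe 4 left out, 563 genes were called, and DESeq2 with all ewes called 95.

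The named genes of smallest p in the interaction test did not pass it. PNCK, ACTC1 and PLA1A had smaller or more negative values at the natural phase, with interactions of -4.35, -3.11 and -4.71 (edgeR adjusted p = 0.0803, 0.142 and 0.118). MX1, PMEL (a melanosome matrix gene) and UCP2 (a mitochondrial uncoupling protein gene) were lower in NWS at the synchronised phase and had positive estimates at the natural phase, with interactions of 1.76, 3.46 and 1.39 (edgeR adjusted p = 0.0803 for all 3). CD177, a neutrophil surface gene, had a log2 fold change of 1.49 (edgeR adjusted p = 0.3) at the natural phase and -3.22 (0.00424) at the synchronised phase, with an interaction of 4.71 (SE 1.2, edgeR adjusted p = 0.0966). For ACTG2 and DES the interactions were -1.72 and -2.29 (edgeR adjusted p = 0.344 and 0.251), so that a difference between the phases was not detected for them.

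FOXC1, FLT3 and TRPM1 fell below the limit of 1 CPM in 8 ewes and were not tested. FOXC1, a forkhead transcription factor gene, was at 0.445 to 3.36 CPM in NWS (median 0.696) and at 0.446 to 5.86 CPM in Suffolk (median 2.43). FLT3, a receptor gene of blood progenitors and dendritic cells, reached 18.6 CPM in Suffolk ewe 4 and had medians of 0.768 in NWS and 1.15 in Suffolk. For TRPM1, a cation channel gene, the medians were 0.746 and 0.630 CPM. In a fit without the limit none of these 3 was called by edgeR (adjusted p = 0.110, 0.0840 and 0.926). No identifier was at 3 counts or fewer in every ewe of one breed and above that in every ewe of the other.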

How the data were processed

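Cervical poly-A RNA of 10 NWS and 8 Suffolk ewes at the natural follicular phase was analysed. Per the labels and the study's methods, trimmed reads were aligned by the authors to Oar_v3.1 with STAR 2.6.1b, and uniquely mapped pairs were kept. They counted these on Ensembl genes with featureCounts (Subread 1.6.3) and deposited raw counts, 1 column per ewe; reads shared by gene copies are lost or split. The study states strand-specific libraries but not whether strand was used in counting.

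The 14426 genes that reached 1 CPM in 8 or more ewes were tested with edgeR 4.0.16 (R 4.3.3), TMM and the quasi-likelihood F test. The SE is the absolute log2 fold change divided by the square root of F. DESeq2 1.42.0 was the alternative. Names were found for 1352 of 27054 identifiers; no coordinates or sequences were used. No library repeated another, since chi-square per degree of freedom was 34.0 or more within a breed. P-values set the difference between the breeds, which goes together with country, against the spread between ewes. The members and gene lists were chosen with earlier results of these data known. The genes given are, per direction, the 8 named DEGs of smallest p, those of the study's tables on NWS or muscle, up to 4 called members of each list and 2 others of highest level, 2 identifiers without a name in each direction, and the 3 of smallest interaction p in each direction; other named DEGs, and OAS2, were added, and 2 named DEGs are not reported here. The fits without NWS ewe 5 and Suffolk ewe 4, which stand apart, and robust dispersion, were added after the data were seen.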

Additional observations from a re-analysis of the deposited data

Results flagged for a closer look

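The interaction of breed and cycle was called for ENSOARG00000013745 (-2.65 on the log2 scale, edgeR adjusted p = 0.0167). The remaining results were picked out because 1 ewe lay far from the others of its breed, relative to the range of the breed. Of 152 groups of ewes tested 18 did so. The limit used passes about 1 in 20 groups by chance where groups are independent and normally spread. Most of these groups were genes named here and measured in the same ewes, so the count cannot be set against that rate. NWS ewe 5 was the ewe in 10 of the 18 groups picked out. It was highest for PCP4 (259 CPM, next 35.8) and lowest for CDH1 (41.1 CPM, next 244), CLCN3 (49.6, next 73.2), DENND3 (11.7, next 20), IGF2 (15.3, next 53.0), KIAA0930 (6.59, next 12.6), MUC16 (147, next 380), NPC1 (22.9, next 53.6), RHOBTB3 (17.9, next 45.9) and SIPA1L2 (10.6, next 29.4). Its library had a TMM factor of 0.702, the others 0.970 to 1.12.

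NWS ewe 6 was highest for the SLC11A2 identifier ENSOARG00000017456, at 985 CPM with the next NWS ewe at 92.7 CPM, and Suffolk ewes ranged from 48.4 to 1161 CPM. NWS ewe 10 was lowest for CLDN3 (11.1 CPM, next 25.6) and NWS ewe 3 for ENSOARG00000017838 (7.18, next 17.0). NWS ewe 3 had the highest sum of lymphocyte markers (33.7 CPM, next 19.5). Suffolk ewe 9 was highest for DENND3 (96.9 CPM, next 53.0), Suffolk ewe 4 lowest for PTGS1 (4.98, next 24.3), and Suffolk ewe 5 lowest for ENSOARG00000012091 (19.1, next 24.1) and MT-ND6 (4.63, next 10.7).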

How the results depend on the processing

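For the natural follicular phase, the 143 DEGs became 786 with DESeq2's Wald test, 739 with its likelihood ratio test and 1282 with all 12 groups of the series in one edgeR fit. They became 0 with edgeR's glmTreat against a fold change of 1.5 (724 genes at an unadjusted p below 0.05) and 0 without NWS ewes 4 and 10 (2273). With 1 ewe left out the count ran from 4 to 880. Other size factors (152), filters (113 without one, 124 and 147), no fold change threshold (150), robust dispersion (137) and leaving out NWS ewe 5 with Suffolk ewe 4 (179) stayed within 1.5 times. The interaction count of 1 became 95 with DESeq2, 270 with all groups, 0 without NWS ewes 4 and 10 and 563 without NWS ewe 5 and Suffolk ewe 4. The cause of these shifts was not tested. The replicate numbers do not pair ewes: over the 8 shared numbers the correlations ran from -0.283 to 0.215 and no ewe was matched best by its own number. With the replicate block there were 0 DEGs at the natural phase (2262 genes at an unadjusted p below 0.05, edgeR), 2509 at the synchronised follicular phase and 215 in place of 622 at the luteal phase. These fits keep only ewes whose number occurs in both breeds, so their counts rest on fewer ewes. At the natural phase NWS ewes 1 and 10 are left out, and without ewe 10 alone the count was already 4. Of 2138 values of 69 genes under the alternatives, 1532 kept direction and call, 554 lost the call, 52 gained it and 0 changed direction. JUP is not among these 69 genes, and its estimate near 0 did change direction with 1 ewe left out. Differences in genes under the limit of 1 CPM in 8 ewes were not tested.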
